A study of Mus musculus with 10 samples.

Results

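The later step of untreated osteogenic differentiation was described by comparing 2 RNA libraries, vehicle-treated MC3T3 cells on day 10 and on day 6, out of 10 libraries in the series. They were chosen by their titles, treatment and time labels, and every gene in the deposited table entered. MC3T3 is an established mouse line of calvarial pre-osteoblasts that makes collagen and then mineral when given ascorbic acid and beta glycerol phosphate. Both groups carried no genetic change by the labels. They had grown in that osteogenic medium (50 µg/ml ascorbic acid, 4 mM beta glycerol phosphate) from the start, with vehicle (DMSO) given at the start and on day 3 and taken away on day 6. From day 6 on the medium was fresh osteogenic medium, changed every 3 days. The parallel cultures received 5 µM GSK126, an inhibitor of the histone methyltransferase EZH2, until day 6. Their day 6 and day 10 libraries are used below only to show the same interval in separate libraries, and the vehicle library of day 3 to show where each gene had stood before.

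Osteoblast maturation is usually described as a sequence in which cells first divide, then lay down a collagen matrix, and then add the proteins and enzymes that let that matrix take up mineral. Osteocalcin and bone sialoprotein belong to the late part of that sequence, type I collagen to the middle, and cell cycle genes to the early part. Cells that leave the cycle usually lower both the genes of DNA synthesis and those of mitosis.

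Each day had 1 library, so no difference below has a replicate check and no p-value is given, and culture, library and day cannot be told apart. The libraries held 104690066 counts on day 6 and 97291878 on day 10, and the 6 RNA libraries ranged from 97291878 to 111537936. A gene was examined if it averaged at least 1 CPM (counts scaled to library size, corrected by TMM, a factor that evens out library composition) over both libraries, which 11692 of 23358 table rows did. Differences are log2 ratios of day 10 to day 6 with 2 counts added to each side. The 95% intervals are exact binomial intervals on fragments, assumed to be counts divided by 2, and cover counting error only. In counts of genes, higher and lower mean levels at least 2-fold apart. For every list of vehicle days 6 to 10 below, the shares of all examined genes to compare are 1.98% higher and 1.02% lower.

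Rn45s, the ribosomal RNA precursor, took 5.99% of the counts on day 6 and 7.24% on day 10. The day 10 library also differed from the day 6 library by gene length. With the genes in 5 equal classes by coding length, the median log2 ratio of the shortest class (up to 1659 bases) was 0.30, and 83.3% of its genes were positive. In the longest class (4851 bases and more) it was -0.24, with 21.6% positive. The same medians were 0.06 and -0.03 between days 3 and 6, and 0.17 and -0.14 between the GSK126 libraries of days 6 and 10. Each list below is therefore also given after subtracting the median of each gene's length bin (20 bins), with the count of genes past 2-fold where that adjustment changed it. What the length trend reflects was not tested.

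**Figure D1:**
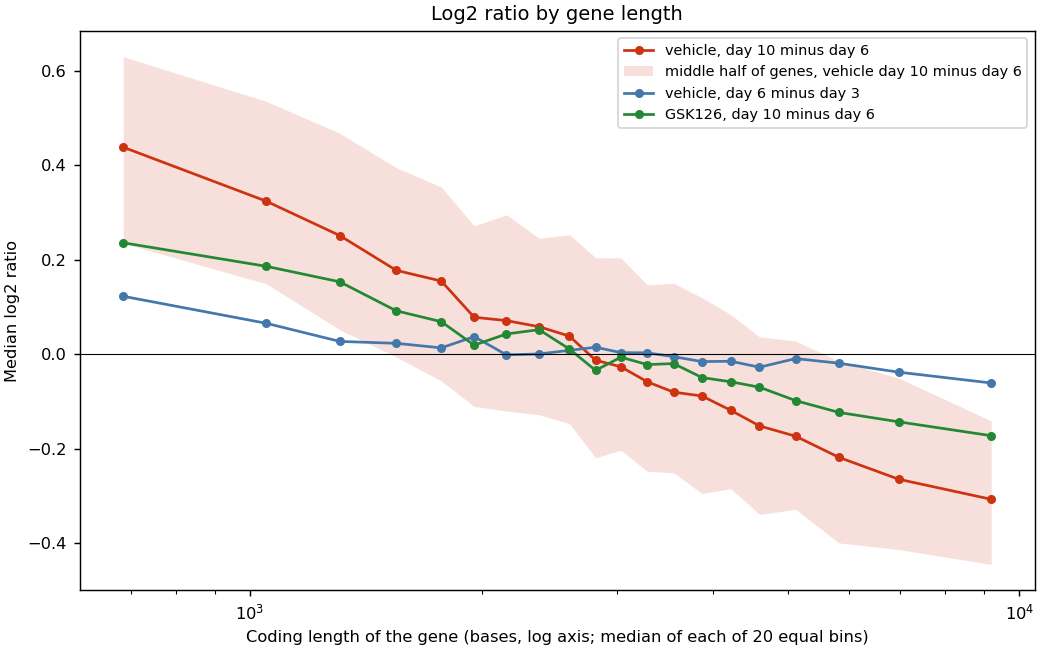
Median log2 ratio (y axis) in 20 equal bins of genes by coding length (x axis, bases, log scale), with 1 line per pair of libraries and, shaded, the quartile range of genes for vehicle day 10 against day 6. The vehicle line of days 6 to 10 runs from above 0 in the shortest bin to below 0 in the longest, and the line of days 3 to 6 stays nearest to 0.

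Most genes differed little. Of the 11692 genes, 9494 (81.2%) stayed within 0.5 on the log2 scale, and the median was 0.00. The day 10 level was 2-fold or more above the day 6 level for 231 genes (1.98%) and below it by as much for 119 (1.02%), 2.99% in all. At 4-fold or more there were 35 and 11. Of the 231 higher genes, 98 were in the shortest class by length and 22 in the longest. In the GSK126 libraries, which are separate from these, 395 of the same genes (3.38%) were higher and 229 (1.96%) lower over the same days, 5.34% in all. From day 3 to day 6 in vehicle, which shares the day 6 library, 2.11% were higher and 0.77% lower, 2.88% in all. Of the 231 genes, 198 (85.7%) had a positive ratio in the GSK126 libraries too, and 87 of the 119 (73.1%) a negative one, while 73.0% of all genes had the same sign in both pairs. GSK126 was withdrawn at the start of that interval, so the GSK126 pair is not a replicate of the vehicle step.

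**Figure D2:**
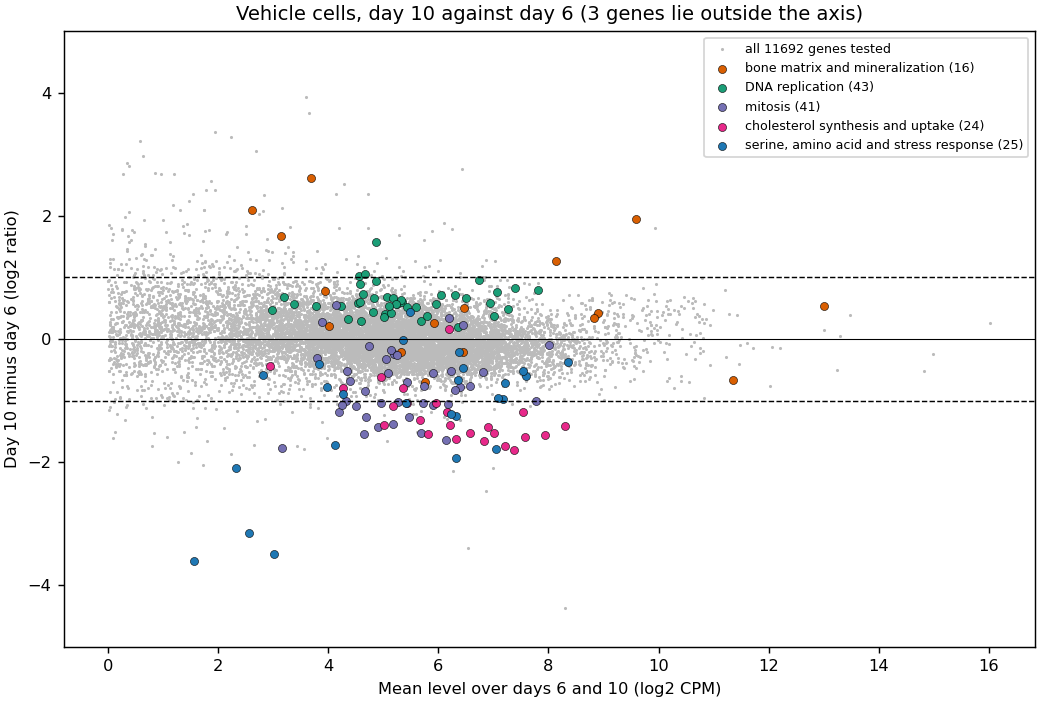
Log2 ratio of day 10 to day 6 in vehicle cells (y axis) against the mean level (x axis, log2 CPM) for each gene, with 5 gene lists in colour and dashed lines at 2-fold. Of the cholesterol genes 19 of 24 and of the stress response genes 10 of 25 lie below the lower line, all 43 replication genes lie above 0, and 5 bone genes lie above the upper line.

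Genes of bone matrix and mineral held several of the largest steps upward, led by osteocalcin and osteopontin. Of 16 examined, 5 were at least 2-fold higher and 0 lower, against 1.98% and 1.02% of all genes, and 12 had a positive ratio. The list median was 0.46, and 0.46 after length adjustment. In bulk RNA, more or fewer cells of a type and more or less RNA per cell cannot be told apart, here and below. Osteocalcin, the calcium-binding hormone-like protein of mature osteoblasts, is encoded by Bglap and the near-identical Bglap2, so reads may be split between them. Bglap had 80, 368 and 2126 counts on days 3, 6 and 10, a 6.10-fold step (log2 ratio 2.61, interval 2.39 to 2.85). Bglap2 went from 236 to 960 counts, or 4.29-fold. Both genes had already been higher on day 6 than on day 3, and in the GSK126 libraries the same step was 1.36 for Bglap and 1.03 for Bglap2 on the log2 scale. These are low levels: Bglap stood at 28.1 RPKM on day 10 (the authors' depth- and length-scaled reads), when Sparc, osteonectin, stood at 3376.

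Spp1, which encodes osteopontin, an acidic phosphoprotein that binds mineral and integrins, showed a different time course. The 3 vehicle libraries in order of day held 279, 317 and 1228 CPM of Spp1, a 3.87-fold later step (log2 ratio 1.95, interval 1.93 to 1.98). In the GSK126 libraries its step was 0.50 on the log2 scale. Omd, osteoadherin, a proteoglycan of mineralized matrix, was 2.41-fold higher at 400 CPM, and Ifitm5, a membrane protein of mineralizing osteoblasts, 3.21-fold higher at 13.4 CPM. Ibsp, bone sialoprotein, had 177, 409 and 547 CPM on days 3, 6 and 10, so its later step (0.42) was smaller than its earlier one (1.21). The same held for Phospho1, a phosphatase of matrix vesicles, with 1.20 and then 0.78. Alpl, alkaline phosphatase, was low throughout, at 1256, 1538 and 1678 counts on days 3, 6 and 10 (later log2 ratio 0.21, interval 0.07 to 0.35). Postn, periostin, had 3220 and then 2037 CPM (-0.66), and the phosphate transporter gene Slc20a1 a ratio of -0.69.

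The stretch before the start of Spp1 is shown because it carries the letters AACCACA, a form of the site bound by RUNX factors, the lineage regulators of osteoblasts. Sequences here and below are the 250 bases before a gene's start in RefSeq (GRCm38.p6, the assembly of mm10), 5′ to 3′ on the gene's strand. Both strands were searched, and only matches to the motif named for a stretch are in capitals. Matches to the other motifs stay in lower case, such as tcactccac, a match to the sterol element TCACNCCAC used below, in Spp1. None of the motifs searched holds another. This one, on the plus strand at chr5:104434861-104435110, has 1 match, starting 129 bases before the start. Of 16 such stretches of the bone genes 2 held AACCACA (12.5%), against 3.15% of 11900 stretches of the examined genes and 4.40% of 32851 in the table. That share was not particular to bone genes. The motif stood in 3 of 22 stretches of fatty acid synthesis genes (13.6%), 2 of 22 of interferon-stimulated genes (9.1%) and 0 of 20 of collagen genes. A match is a description and not evidence of binding.
Spp1: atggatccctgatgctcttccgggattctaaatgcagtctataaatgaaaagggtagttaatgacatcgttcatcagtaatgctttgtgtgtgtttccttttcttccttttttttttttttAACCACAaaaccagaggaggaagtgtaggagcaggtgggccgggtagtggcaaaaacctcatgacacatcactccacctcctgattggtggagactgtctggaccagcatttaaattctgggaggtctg

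**Figure D3:**
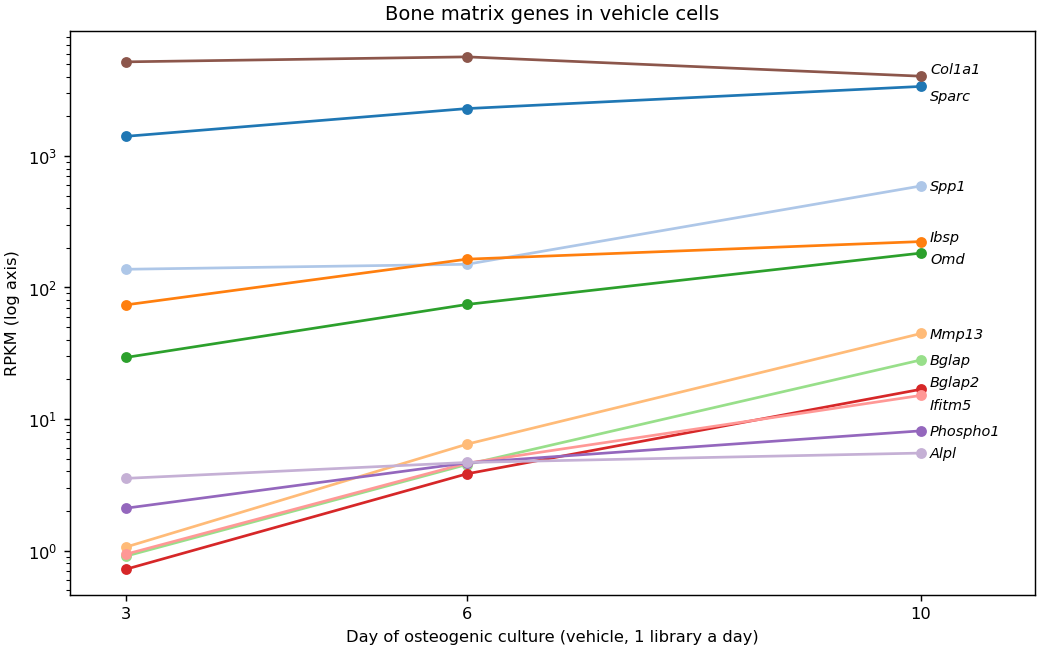
RPKM of 11 matrix genes (y axis, log scale) in the vehicle libraries of days 3, 6 and 10 (x axis, 1 library a day). Bglap, Bglap2, Ifitm5 and Mmp13 climb over both intervals, Spp1 mainly after day 6, and Col1a1 is lower on day 10 than on day 6.

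Collagen genes did not follow the mineral genes. Of 22 examined, 1 was at least 2-fold higher, 0 lower and 14 negative, with a median of -0.17 that became 0.09 after length adjustment, and their median coding length is 6107 bases. Col1a1 and Col1a2 encode the 2 chains of type I collagen, the bulk of bone matrix. Col1a1 had 29893, 33964 and 23762 CPM on days 3, 6 and 10, a log2 ratio of -0.52 for the later step and -0.13 in the GSK126 libraries. Col1a2 stood at -0.24. Col3a1, a collagen of loose and early matrix, had 11402 and 8043 CPM (-0.50, and -0.49 with GSK126). Per length, Col1a1 at 4038 RPKM and Col1a2 at 4630 were still above Sparc on day 10. Col24a1, a minor fibrillar collagen described in bone, was the exception at 2.01-fold higher. The enzymes that modify and crosslink collagen had 0 of 24 members past 2-fold and a median of -0.06 (0.0080 after length adjustment). Serpinh1, the collagen chaperone HSP47, had 1674 and 1039 CPM (-0.69), while Lox, the crosslinking oxidase, had a ratio of 0.36 and Plod2, a lysyl hydroxylase, 0.16.

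Small leucine-rich proteoglycans, which coat collagen fibrils, were the most uniform of the matrix lists. All 8 examined had a positive ratio, the median was 0.44 with and without length adjustment, and 0 reached 2-fold. Lum, lumican, went from 1179 to 2349 CPM (1.99-fold), Ogn, osteoglycin, from 689 to 1284, Dcn, decorin, from 525 to 695, and Bgn, biglycan, from 1672 to 1782. The median was 0.46 in the GSK126 libraries.

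Elastic fibre and matricellular genes split. Of 25 examined, 4 were higher (Eln, Dpt, Mfap5 and Wisp2) and 1 lower (Ctgf), against 1.98% and 1.02% of all genes. The median was -0.04, which became 0.07 after length adjustment and 0.00 when scaled by library size without Rn45s. Eln, elastin, had 208 and 662 counts (3.35-fold) and Dpt, dermatopontin, a collagen-binding protein, 588 and 1416 (2.55-fold). In the GSK126 libraries the same step was -0.05 for Eln and -1.61 for Dpt. Mfap5, a microfibril protein, was 2.48-fold higher, and Wisp2, a CCN family protein, had a ratio of 1.00 (0.85 after length adjustment). Ctgf, connective tissue growth factor, was 2.07-fold lower (24.0 to 11.6 CPM). Fn1, fibronectin, had a ratio of 0.39 and Tnc, tenascin C, of -0.24.

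Among 20 matrix proteases and inhibitors, 1 was higher and 1 lower, against 1.98% and 1.02% of all genes, with a median of -0.21 (-0.10 after length adjustment). Mmp13, the collagenase of late osteoblasts, had 402, 2252 and 14482 counts on days 3, 6 and 10, a 6.81-fold step (2.77, interval 2.68 to 2.86) with a counterpart of 2.30 in the GSK126 libraries. Ctsk, cathepsin K, a collagen-degrading protease best known from osteoclasts, was 1.64-fold higher at 410 CPM. Acp5, another osteoclast gene, had 6 and 2 counts, and Csf1r, a receptor of the osteoclast and macrophage lineage, 154 and 96. Timp1, a metalloproteinase inhibitor, had a ratio of 0.52.

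Regulators of the lineage were close to their day 6 level. None of 16 osteoblast transcription factors reached 2-fold in either direction, and the median was -0.12 (-0.01 after length adjustment). Runx2, the master factor of the lineage, had 288 and 237 CPM (-0.28). Sp7, osterix, which acts downstream of Runx2, had 109 and 145 (0.41). Atf4, a factor of both osteoblasts and the stress response, showed the lowest ratio of the list at -0.82. Genes of osteocytes, the cells that osteoblasts become inside bone, also showed no common direction: 5 of 10 were positive and 0 passed 2-fold (median 0.06, -0.05 after length adjustment). Dmp1, a mineral-binding protein of early osteocytes, had 4.15, 11.4 and 6.82 CPM on days 3, 6 and 10 (-0.73), Phex, a peptidase of phosphate balance, 0.23 and Pdpn, podoplanin, 0.21. Sost, sclerostin, had 0 counts in both libraries.

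**Figure D4:**
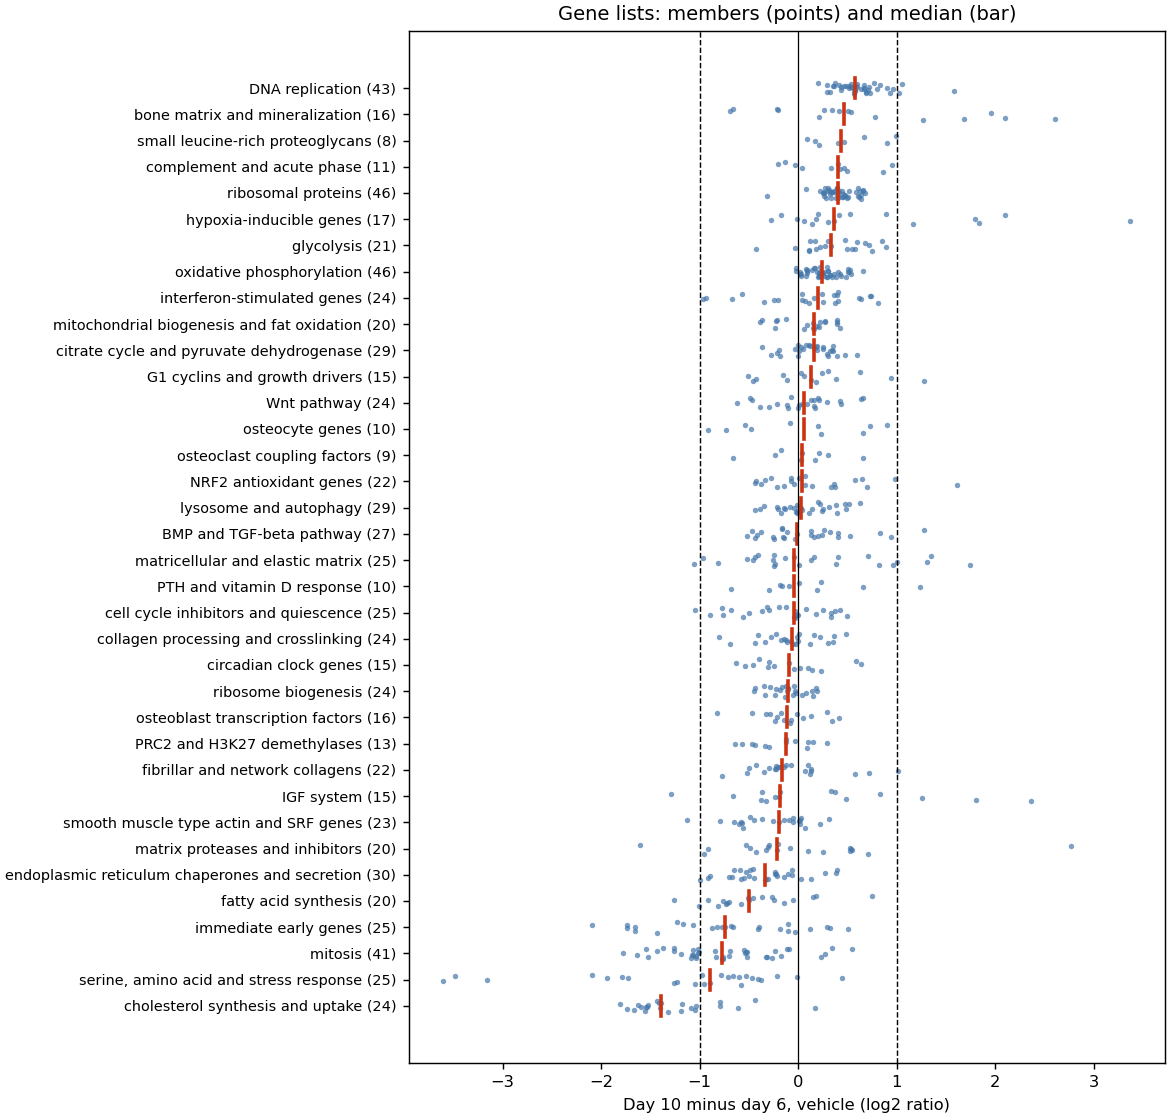
Log2 ratio of day 10 to day 6 in vehicle cells (x axis) for the members (points) of each gene list with at least 8 genes examined, ordered by list median (red bars), with dashed lines at 2-fold. The number of genes is in brackets. DNA replication has the highest median (0.58) and cholesterol synthesis the lowest (-1.40).

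The cell cycle genes divided into 2 groups with opposite signs. All 43 DNA replication genes had a positive ratio, with a median of 0.58 (0.53 after length adjustment). At or above 2-fold were 3, against 1.98% of all genes. Of 41 mitosis genes, 37 had a negative ratio, with a median of -0.78 (-0.70 after length adjustment) and 18 at least 2-fold lower (14 after length adjustment), against 1.02% of all genes. Between days 3 and 6, which share the day 6 library with this step, both lists had negative medians, with 43 of 43 and 40 of 41 ratios negative and medians of -0.67 and -0.76. The 2 steps share a library, so they are not independent.

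Among the replication genes, Ccne2, cyclin E2, which drives entry into S phase, had 24.1, 14.6 and 43.8 CPM on days 3, 6 and 10, 2.99-fold higher than on day 6 and above its day 3 level. Gins2, a helicase subunit, was 2.04-fold higher (log2 ratio 1.03, and 0.70 after length adjustment). Most others came back toward or just past their day 3 level. Mcm2, a subunit of the replicative helicase, had 150, 99.4 and 170 CPM, Mcm3 127, 72.0 and 140, and Pcna, the sliding clamp, 235, 165 and 286. Rrm2, the regulated subunit of ribonucleotide reductase, had 100.3, 50.3 and 82.1, and so stayed below day 3.

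Most mitotic genes had negative ratios again. Ccnb1, cyclin B1, had 94.3, 52.0 and 20.0 CPM on days 3, 6 and 10, 2.60-fold lower over the later step (log2 ratio -1.38, interval -1.48 to -1.27). Cdc25c, the phosphatase that triggers mitosis, was 3.42-fold lower, at 13.8 and 4.01 CPM. Cenpf and Cenpa, proteins of the centromere and kinetochore, were 3.11-fold and 2.92-fold lower, and Cdc20, which activates the anaphase-promoting complex, 2.70-fold. Mki67, the proliferation marker Ki-67, had 503, 294 and 146 CPM, a ratio of -1.01 that became -0.70 after length adjustment and -0.99 when scaled by library size. The genes of the list that did not follow were Mybl2 at 0.55, Mad2l1 at 0.34, Pttg1 at 0.27 and Cdk1, the mitotic kinase itself, at 0.23. Top2a, topoisomerase II alpha, needed in both S phase and mitosis, lay between at -0.09.

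The GSK126 libraries differed from this pattern. There, all 43 replication genes again had positive ratios, with a median of 1.71 and 41 at least 2-fold, but so did all 41 mitosis genes, with a median of 1.101 and 22 at least 2-fold. Of all genes in that pair, 3.38% were at least 2-fold higher. Ccnb1 had a ratio of 0.71 and Cdk1 of 1.71 in those libraries. Each ratio is against that treatment's own day 6 library. Cdc25c, for example, had 622 and 832 counts with GSK126 on days 6 and 10, and 1412 and 388 in vehicle. With 1 library a side the difference between the treatments was not tested.

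**Figure D5:**
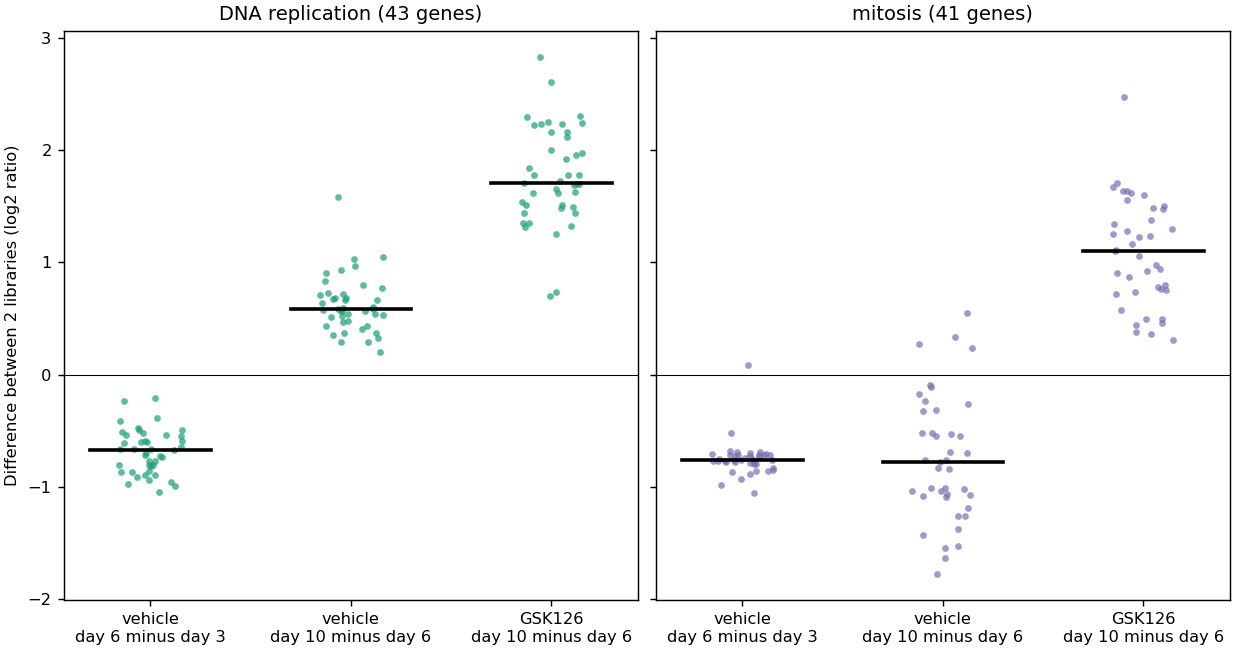
Log2 ratios (y axis) of 43 replication genes (left) and 41 mitosis genes (right) in 3 pairs of libraries (x axis), with black bars at the medians. In vehicle cells both lists are below 0 from day 3 to day 6, and from day 6 to day 10 they separate (0.58 and -0.78), while with GSK126 both are above 0.

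The promoters of the 2 lists differ in letters that are known from cell cycle control. The E2F site is the element of G1 and S phase genes, and the CHR (cell cycle genes homology region) that of G2 and mitosis genes, often near a CCAAT box. TTCCCGC, a core of the E2F site, stood in 11 of 39 stretches of replication genes (28.2%), in 0 of 36 of mitosis genes, and in 6.92% of those of all examined genes (3.82% of the table). TTTGAA, the CHR, stood in 13 of 36 stretches of mitosis genes (36.1%), 10.3% of those of replication genes and 10.45% of those of examined genes (15.99% of the table). CCAAT stood in 77.8% of mitosis, 56.4% of replication and 35.8% of examined stretches (33.9% of the table). Neither share was particular to mitosis genes. TTTGAA stood in 4 of 11 stretches of osteoblast transcription factors (36.4%). CCAAT stood in 77.8% of circadian clock and 80.0% of cholesterol synthesis stretches. One stretch of each kind is shown, from a member that held a match and changed in its list's direction. Not every member was eligible to be shown, so a member with a greater change may also hold a match. Chaf1b, a subunit of the chromatin assembly factor that follows the replication fork (20.0 and 38.3 CPM), has 1 E2F match at chr16:93883651-93883900 on the plus strand. Cdc20 has 1 CHR match, 18 bases before the start, at chr4:118437344-118437593 on the minus strand.
Chaf1b: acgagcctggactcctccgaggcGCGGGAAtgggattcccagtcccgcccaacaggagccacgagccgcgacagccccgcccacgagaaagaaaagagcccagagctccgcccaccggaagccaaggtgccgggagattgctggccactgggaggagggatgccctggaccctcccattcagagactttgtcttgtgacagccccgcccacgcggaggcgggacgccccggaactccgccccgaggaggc
Cdc20: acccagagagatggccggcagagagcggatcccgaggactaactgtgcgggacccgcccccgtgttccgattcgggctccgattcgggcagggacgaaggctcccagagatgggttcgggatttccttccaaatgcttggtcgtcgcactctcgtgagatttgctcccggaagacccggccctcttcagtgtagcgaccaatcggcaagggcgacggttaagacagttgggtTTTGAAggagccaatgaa

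Growth arrest genes had a median near 0. Of 25 cell cycle inhibitors and quiescence genes, 0 were at least 2-fold higher, 1 (Sesn2, a stress-induced sestrin) was lower, and the median was -0.05 (-0.16 after length adjustment). Cdkn1a, the inhibitor p21, had 214, 308 and 269 CPM on days 3, 6 and 10 (-0.20 for the later step), and Cdkn1b, p27, had 112 and 108 (-0.05). Cdkn1c, p57, had 6 and 4 counts. Of 15 genes of G1 cyclins and growth drivers, 1 was higher, with a median of 0.13 (0.14 after length adjustment): Id3, an inhibitor of helix-loop-helix factors and a target of BMP signals, at 2.41-fold, with Id2 at 1.92-fold. After length adjustment Id3 had a log2 ratio of 0.95 and 0 of the 15 passed. Ccnd1, cyclin D1, had a ratio of 0.13 and Myc of -0.43. Only 4 of 35 replication-dependent histone genes reached the level examined. Most transcripts of this family have no poly(A) tail. Of these Hist1h1c, a linker histone, was 2.32-fold and Hist1h2bc 2.73-fold higher, and the median was 1.07 (0.89 after length adjustment).

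Cholesterol synthesis was the list with the lowest median. Of 24 genes, 19 were at least 2-fold lower and 0 higher, against 1.02% and 1.98% of all genes. The ratio was negative for 23, with a median of -1.40 (-1.36 after length adjustment). These genes are driven together by SREBP2, a membrane-bound factor released when sterol is short. Sqle, squalene epoxidase, had 338, 256 and 73.3 CPM on days 3, 6 and 10, and was 3.49-fold lower for the later step (-1.81, interval -1.86 to -1.75). Fdps, which makes farnesyl diphosphate, was 3.33-fold lower. Insig1, which retains SREBP in the endoplasmic reticulum and is also its target, was 3.02-fold lower, and Srebf2, the gene of SREBP2, 2.27-fold. Ebp, a sterol isomerase, was the exception at 0.17. The list had a median of -0.53 over days 3 to 6 and of -0.51 with GSK126 over days 6 to 10, where 0 of 24 were 2-fold lower. In fatty acid synthesis 2 of 20 genes were at least 2-fold lower (Elovl6, an elongase, and Scd1, a desaturase), 17 were negative, and the median was -0.50 (-0.47 after length adjustment). Scd1 lay at the threshold, with -1.01, -0.99 when scaled by library size and -0.86 after length adjustment, when 1 gene was higher and 2 lower. Fasn, fatty acid synthase, had 443 and 261 CPM.

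The stretch before Hmgcs1, the synthase that makes HMG-CoA (457 and 172 CPM, 2.66-fold lower), is shown as the 1 of 20 stretches of this list that held the sterol element in the strict form TCACNCCAC. The share was 0.970% among examined genes and 1.05% in the table. A share of 5.0% was not particular to this list. The motif also stood in 2 of 28 stretches of endoplasmic reticulum chaperone genes (7.1%) and 1 of 16 of bone genes (6.2%). The bone stretch was that of Spp1. Of mitosis stretches 0 of 36 held it. The Hmgcs1 stretch lies on the plus strand at chr13:119690101-119690350, with the match starting 137 bases before the start. Looser forms of the element were not searched, and CCAAT stood in 80.0% of the list's stretches.
Hmgcs1: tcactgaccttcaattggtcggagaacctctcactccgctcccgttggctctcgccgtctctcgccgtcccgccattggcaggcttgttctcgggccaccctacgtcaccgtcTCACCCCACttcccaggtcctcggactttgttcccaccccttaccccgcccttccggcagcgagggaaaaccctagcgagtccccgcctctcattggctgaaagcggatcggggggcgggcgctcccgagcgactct

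Amino acid and stress response genes, the targets of ATF4 that cells raise when amino acids run short or protein folding fails, had negative ratios in 24 of 25 cases. Of the 25, 10 were at least 2-fold lower (11 after length adjustment) and 0 higher, against 1.02% and 1.98% of all genes. The median was -0.89 (-0.96 after length adjustment). From day 3 to day 6 the list had a median ratio of 0.35, and both comparisons rest on the same day 6 library. Trib3, a pseudokinase that feeds back on ATF4, had 314, 1518 and 126 counts on days 3, 6 and 10, 11.2-fold lower in the later step. Chac1, which degrades glutathione, had 594, 1094 and 114 (8.92-fold), and Slc7a11, the cystine importer, 158, 562 and 42 (12.1-fold). Asns, asparagine synthetase, had 77.3, 127 and 33.1 CPM, so that day 10 was below day 3 as well. Atf3, a stress-induced factor, was 4.27-fold and Slc7a5, a large amino acid transporter, 3.45-fold lower, and Atf4 itself went from 229 to 130 CPM. Pycr1, of proline synthesis, was the exception at 0.45. In the GSK126 libraries all 25 were negative, 20 of them by at least 2-fold, with a median of -1.67.

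Slc7a11 carries 2 matches to TGATGNAA, the core of the ATF4 element, on opposite strands, 66 and 47 bases before the start (minus strand, chr3:50443614-50443863). Of 28 stretches of this list 7 (25.0%) held the motif, against 1.82% among examined genes and 3.45% in the table.
Slc7a11: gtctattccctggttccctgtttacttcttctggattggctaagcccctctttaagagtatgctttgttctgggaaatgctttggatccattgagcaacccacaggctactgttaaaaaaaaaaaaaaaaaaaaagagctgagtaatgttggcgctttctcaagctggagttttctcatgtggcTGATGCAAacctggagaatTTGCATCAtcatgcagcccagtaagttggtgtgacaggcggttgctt

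Chaperones and export machinery of the endoplasmic reticulum, which load on a cell that secretes collagen, had 25 of 30 negative ratios, 0 past 2-fold (1, Hspa5, after length adjustment) and a median of -0.33 (-0.30 after length adjustment). Hspa5, the chaperone BiP, had 586, 689 and 346 CPM on days 3, 6 and 10 (-0.99, and -1.02 with GSK126). Xbp1, a factor of the unfolded protein response, had a ratio of -0.45 and Creb3l1, OASIS, a factor of collagen secretion in osteoblasts, of -0.53. Immediate early genes, the first to answer serum and growth factors, were at least 2-fold lower in 9 of 25 and higher in 0. The shares of all genes were 1.02% and 1.98%. The list median was -0.74 (-0.62 after length adjustment). Egr1 had 355, 51.0 and 16.2 CPM, and Fos 109, 4.43 and 1.63, so that for both the greater part of the difference lay before day 6. The same held for Egr2 (-2.50 and then -1.73) and Arc (-2.53 and then -1.17). Egr3 (-0.80 and then -1.65) and Nr4a1 (-0.44 and then -1.23) had the larger fall after day 6. Atf3 (1.65 and then -2.09) and Nr4a3 (1.165 and then -1.74) had been higher on day 6 than on day 3. Junb had 140.4, 16.7 and 16.3 CPM. The hours between the last medium change and harvest are not given in the labels.

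Energy metabolism genes differed by small amounts. Of 21 glycolytic genes 19 had a positive ratio, 0 passed 2-fold (1, Pdk1, after length adjustment), and the median was 0.33 (0.34 after length adjustment). Pdk1, the kinase that inhibits pyruvate dehydrogenase, had 15.6, 40.2 and 74.4 CPM on days 3, 6 and 10 (0.89), Ldha, lactate dehydrogenase, a ratio of 0.54, Slc2a1, the glucose transporter GLUT1, 0.30 and Hk2, hexokinase 2, 0.17. Citrate cycle and pyruvate dehydrogenase genes had a median of 0.16 (0.06 after length adjustment) with 0 of 29 past 2-fold, where Cs, citrate synthase, stood at -0.18 and Pdk4 at 0.34. For oxidative phosphorylation 44 of 46 ratios were positive, with a median of 0.24 that turned to -0.08 after length adjustment, when 17 of 46 were positive. These genes are short (median 765 bases). Atp5b, of the ATP synthase, stood at -0.02 and Cox4i1, of cytochrome oxidase, at 0.25. Ribosomal protein genes were alike: 45 of 46 were positive at a median of 0.40, which became 0.01 after length adjustment, with 25 of 46 positive. Genes of ribosome assembly had a median of -0.11 (-0.07 after length adjustment), and those of mitochondrial biogenesis and fat oxidation 0.16 (0.04), with 0 of 24 and 0 of 20 past 2-fold.

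A subset of hypoxia-inducible genes was higher. Of 17, 5 were at least 2-fold higher (6 after length adjustment) and 0 lower, against 1.98% and 1.02% of all genes, and the median was 0.36 (0.44 after length adjustment). Ankrd37 had 68 and 680 counts (10.3-fold), Egln3, an oxygen-sensing prolyl hydroxylase, 128 and 524 (4.29-fold), and Car9, carbonic anhydrase 9, 254 and 860 (3.57-fold). Bnip3, which marks mitochondria for removal, had 17.8, 34.1 and 118 CPM on days 3, 6 and 10, and Higd1a, of the respiratory chain, 20.7, 33.2 and 74.5. Vegfa, the angiogenic factor, did not follow (0.14). With GSK126 the step was 2.44 for Ankrd37, 2.13 for Egln3 and 1.72 for Bnip3, but 0.06 for Car9.

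Growth factor systems showed a few large steps within lists that were flat. In the IGF list 3 of 15 were higher and 1 lower, against 1.98% and 1.02% of all genes, with a median of -0.18 (0.08 after length adjustment). Igf2, insulin-like growth factor 2, had 222, 878 and 4266 counts on days 3, 6 and 10 (5.14-fold), and H19, the imprinted RNA next to it, which is in no list and was picked out after its values were seen, 100, 446 and 1490 (3.53-fold). Igfbp6, which binds IGF2, was 3.48-fold higher and Igfbp2 2.39-fold, while Igfbp5, the binding protein most tied to bone matrix, was 2.45-fold lower (101 to 41.1 CPM). Igf1 had a ratio of 0.49. With GSK126 Igfbp5 was likewise lower (-1.50), but Igf2 stood at 0.86 and Igfbp6 at 0.45.

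The Wnt list had 0 of 24 past 2-fold (median 0.06, 0.10 after length adjustment), with the feedback gene Axin2 at -0.39 and the secreted inhibitor Wif1 at 0.64. Among BMP and TGF-beta genes 1 of 27 passed, Id3, at a median of -0.01 (0.06 after length adjustment, when 0 of 27 passed, and 0.01 when scaled by library size). Bmp4 stood at 0.26, Id1 at 0.24 and Smad7 at -0.25. In the PTH and vitamin D list Ramp1, a receptor partner for calcitonin family peptides, was 2.35-fold higher as 1 of 10 (median -0.04, 0.12 after length adjustment), with Pth1r at 0.23 and Vdr at 0.19. Of 9 osteoclast coupling factors 0 passed (median 0.04, 0.10). Tnfrsf11b, osteoprotegerin, which blocks RANKL, had 104 and 164 CPM (0.66), and Tnfsf11, RANKL itself, had 0 counts on both days. PRC2 and H3K27 demethylase genes had 0 of 13 past 2-fold (median -0.12, also -0.12), with Ezh2 at 46.7 and 51.7 CPM and Ezh1 at -0.03.

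The remaining lists had medians within 0.42 of 0. Smooth muscle type actin genes had 1 of 23 lower, Actg2 (median -0.19, -0.27 after length adjustment), with Acta2 at -0.80, Tagln at -0.58 and Cnn2 at 0.22. Interferon-stimulated genes had 0 of 24 past 2-fold, and 2 lower after length adjustment (0.20, 0.19), with Isg15 at 0.04 and Ifit1 at -0.94. Complement and acute phase genes had 0 of 11 (0.40, 0.42), with Cxcl12 at 0.04. Lysosome and autophagy genes had 0 of 29 (0.03, 0.03), with Ctsd at 0.11. NRF2 antioxidant genes had 1 of 22 higher (0.03, -0.09), the selenoprotein P gene Sepp1 at 1.61, with Nqo1 at 0.98 and Hmox1 at -0.21. Circadian clock genes had 0 of 15 (-0.09, -0.08), with Arntl at -0.09, Dbp at 0.59 and Nr1d1 at 0.14.

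Markers of other cell types were at or near the floor in most cases. Adipocyte markers summed to 12.8 CPM on day 6 and 20.5 on day 10, with 2 of 12 examined (Plin4 2-fold higher at 1.08), and Adipoq had 2 and 4 counts. Skeletal and cardiac muscle markers summed to 2.17 and 2.52 CPM with 0 of 12 examined, and Myod1 and Myog had 0 counts. Endothelial markers summed to 0.995 and 2.38 CPM, with 1 of 8 examined, Vwf (1.32), and 0 counts of Cdh5. Neuronal markers summed to 19.6 and 28.4 CPM (2 of 10 examined), mostly Tubb3. Epithelial markers summed to 0.663 and 0.868 CPM (0 of 8), with 0 counts of Epcam. Blood cell and osteoclast markers summed to 266 and 434 CPM (4 of 14), and most of that was Ctsk. The other 3 examined were Lyz2, a lysozyme of myeloid cells, with 1020 and 1830 counts, Cd14 with 272 and 280, and Csf1r, while the leukocyte gene Ptprc had 2 on both days. Chondrocyte markers summed to 203 and 214 CPM (7 of 17). Among them Col11a2 was 2.25-fold higher, Sox9 had 3734 and 2360 counts, Col2a1 5784 and 5682, and Acan 0. The bone list summed to 11601 and 14852 CPM. The part of the other cell types' markers in the results was not tested.

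The 15 genes with the highest ratios by the naming rule (mean CPM of at least 5) added several genes outside the lists. Gpnmb, osteoactivin, a glycoprotein of osteoblasts and macrophages, had 162, 596 and 3222 counts on days 3, 6 and 10 (5.72-fold), against a step of 0.06 with GSK126. Aqp2, the water channel of the kidney collecting duct, had 10, 140 and 1116 counts (8.35-fold). Ly6a, Sca-1, an antigen of stem and stromal cells, had 1458, 588 and 2844 (5.11-fold) and was higher with GSK126 too (1.93). Fam198a was 5.08-fold higher, Rarres2, the chemoattractant chemerin, 4.39-fold, Cd200, an immune-inhibitory glycoprotein, 4.20-fold and Selenbp1, a selenium-binding protein, 4.08-fold. The others of the 15 were Mmp13, Bglap, Igf2 and Bglap2, described above, and Mir2137, Ephx4, Gm15706 and Tmem158, described next. Among the 15 lowest ratios and outside the lists, Aldh1l2, the mitochondrial folate enzyme, was 4.25-fold lower (207 to 48.6 CPM) and Dusp8, a MAP kinase phosphatase, 3.44-fold. The list members among them were Trib3, Chac1, Asns, Sqle, Slc7a5, Cdc25c, Fdps, Egr2 and Slc6a9.

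Several of the largest differences lay in genes whose 6 libraries were uneven. Mir2137 (chromosome X, 72992079 to 72992144, mm10) had 45208 counts in vehicle on day 10 and at most 4 in each of the other 5 libraries, at least 15978-fold above day 6 against a floor of 3 counts. Sap30l, a subunit of a histone deacetylase complex, had 3052, 61378 and 2808 counts in vehicle on days 3, 6 and 10, but also 26558 with GSK126 on day 10. Vehicle on day 6 was the highest of the 6 libraries for Pcdhac2 (17298 counts, against 1374 to 2960 elsewhere), Rnf220 (20318, against 3250 to 4818) and Inpp5e (12818, against 1892 to 3434), so that their ratios of -3.40, -2.46 and -2.14 rest on that library. Ephx4 had 1542, 8 and 1760 counts in vehicle on days 3, 6 and 10, and 18, 6 and 2128 with GSK126, so both day 10 libraries were above both day 6 libraries (log2 ratios 7.55 and 8.15). Corin, below the level of the naming rule and picked out after its values were seen, had 6, 572 and 4. Tmem158 counts were 144, 184 and 2242 in vehicle against 58610, 148 and 44420 with GSK126, a step in the same direction in both (3.68 and 8.29). Gm15706 counts were 180, 150 and 2186 in vehicle against 1210, 230 and 300 with GSK126 (3.93 and 0.46).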

How the data were processed

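RNA was measured in 6 libraries and H3K27me3 in 4. Only the vehicle RNA libraries of days 6 and 10 entered the main comparison. Per the labels' protocols, RNA libraries were made with the TruSeq v2 mRNA protocol, which does not mark strand. The submitters' processing notes name TopHat2 2.0.6, HTSeq 0.5.3p9, BWA 0.5.9, SICER 1.1 and mm10. No source used here gives the annotation release or counting mode. The authors deposited whole-number counts per gene, all even (0 odd values per library). A fragment was therefore assumed to enter as 2 read ends, and intervals use counts divided by 2. The authors' RPKM values, per coding length and library total, were used for levels between genes only. The deposited island list for vehicle carries counts for ChIP and input with a p-value and a ratio; only its positions were used. 0 per-sample columns were left unmapped.

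TMM factors came from edgeR 4.0.16 over 6 libraries (R 4.3.3). The computation of the ratio was run on simulated counts: 50 genes each given folds of 0.25, 0.5, 2 and 4 among 11746 came back with median log2 ratios of -2.00, -1.02, 1.00 and 2.00 for this comparison. The simulated counts used the same scaling and carried counting noise only, with no length trend or library noise. The run therefore checks the arithmetic and not the measured ratios. Genes named are the 15 largest rises and 15 largest falls at a mean CPM of at least 5 with a name on 1 row, and, in each of 44 lists, preset key members and up to 6 others with the greatest absolute ratio. Sost, Mybl2, Mad2l1, Pttg1, Top2a, Srebf2, Ebp, Pycr1, Cnn2, H19 and Corin fall outside that rule and were named after their values were seen, and Hmgcs1 for its promoter match. The members and lists were chosen with earlier results of these data known. List names absent from the table were matched through RefSeq synonyms (8 of 1020). Promoter sequences are RefSeq's, GRCm38.p6, and 9324 examined genes matched one. Some members of the lists are counted but not reported by name here.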

Additional observations from a re-analysis of the deposited data

Results flagged for a closer look

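The mitosis list moved in opposite directions over days 6 to 10, with a median log2 ratio of -0.775 in vehicle and 1.101 in GSK126 libraries. The gene Sap30l had -4.36 in vehicle and 3.42 in GSK126 libraries over the same days. Both were picked out because the 2 treatments moved apart by at least 0.5 on each side. Each side is 1 pair of libraries, so the difference was not tested.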

How the results depend on the processing

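No paired analysis was possible because each group held 1 library. The 9 alternatives and the length adjustment, which was chosen after seeing the data, changed the number of genes at least 2-fold higher (231) and lower (119) by less than 1.5 times, except through the filter on low counts. With no filter 1437 genes were higher and 1242 lower of 17040, and at a mean CPM of at least 5 there were 101 and 85 of 10163. The 4 other scalings gave 230 to 271 higher and 106 to 119 lower. After length adjustment there were 185 and 120. List medians moved by at most 0.041 under the other scalings, which turned the sign of 2 medians near 0 (BMP and TGF-beta genes, matricellular genes). The medians ran from 0.53 to 0.62 for DNA replication, from -0.78 to -0.70 for mitosis, from -1.40 to -1.36 for cholesterol synthesis, from -0.96 to -0.78 for amino acid and stress response genes and from 0.38 to 0.50 for bone matrix genes over all 10 alternatives. Length adjustment changed the sign of 10 of 42 list medians, among them oxidative phosphorylation (0.24 to -0.08) and fibrillar and network collagens (-0.17 to 0.09), and brought ribosomal proteins to 0.01. No gene that was at least 2-fold different changed direction among the 848 recomputed. The largest shift of a gene was 0.058 under the other scalings and 0.44 after length adjustment. Both are smaller than 2-fold, so those settings could not have reversed such a gene. Of these genes 10 fell below 2-fold after length adjustment, 4 when scaled by library size and 7 when scaled without Rn45s. With 1 library a day, library noise and culture time cannot be told apart.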

Other observations

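H3K27me3 had been mapped in vehicle cells 24 hours after the first dose, long before either library here. The authors' vehicle list holds 34498 islands. Of 9324 examined genes with a RefSeq start, 107 (1.15%) had a start inside an island, against 6.84% of all 17542 genes with one. The numbers were 6 of 171 genes at least 2-fold higher on day 10 (3.51%) and 4 of 87 lower (4.6%). The 6 were Sept4, Frem1, Prex1, Ebf4, Steap3 and Apod, with log2 ratios of 2.10, 1.78, 1.68, 1.503, 1.42 and 1.0997, and the 4 were Egr2, Atp2a3, Mmp15 and Ckmt1, with -1.73, -1.52, -1.31 and -1.07. Prex1 is a Rac exchange factor, Frem1 a matrix protein of basement membranes and Apod a lipocalin that carries lipids. Apod had 0.94 after length adjustment. These genes were singled out after their values were seen, and the 2 assays are 5 or more days apart. The shares above were not matched for expression level. At a mean CPM of at least 5, 101 genes were at least 2-fold higher and 85 lower, instead of 231 and 119. The part of expression level in the island shares was not tested.

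Some large steps shared by both treatments lie outside the lists and were also picked out after the values were seen. Slc36a2, a proton-coupled amino acid transporter, had log2 ratios of 3.22 in vehicle and 2.70 with GSK126, and Ndufa4l2, a hypoxia-inducible mitochondrial protein, 2.18 and 3.10. Gdf15, a stress-induced cytokine, had -1.85 and -3.16.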
